A study of Mus musculus with 32 samples.

Results

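Erythroid genes other than the globins are described here in WT and Commd10Null mouse embryos. The list held 34 genes: regulators of the red cell lineage, enzymes and carriers of heme synthesis, and proteins of the red cell membrane, its receptors and its cytosol. They were listed by name, with earlier results of these data known, and 33 of the 34 matched 1 of the 55414 Ensembl gene identifiers in the count table. No identifier was matched to Ahsp, the gene of the α-globin chaperone, which was therefore not analysed here.

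The data were 32 libraries of 3′ tags of messenger RNA, each from whole mouse embryo tissue freed of the yolk sac, with 10 WT and 3 Commd10Null libraries at E8.5, 9 WT and 3 Commd10Null libraries at E9.5, and 4 WT and 3 Commd10Null libraries at E10.5. Commd10Null embryos were homozygous for the Vav1-iCre transgene of the strain B6.Cg-Commd10Tg(Vav1-icre)A2Kio/J, which sits in an intron of Commd10 on chromosome 18 and disrupts that gene, and both genotypes came from crosses of Commd10Het littermates. Commd10Null embryos thus also carry a Cre recombinase under the promoter of Vav1, a gene of blood cells, while WT embryos carry none, and by the study's description the mutants at the later stages were being resorbed. The tags of Commd10 itself stood at 36.2 to 55.6 CPM over the 23 WT libraries and at 58.6 to 93.9 CPM over the 9 Commd10Null libraries. The tags are read at the end of the transcript, beyond the insertion, and nothing there is deleted, so their number does not check the loss of the gene, although no Commd10Null library fell within the WT range. Total counts were 7025188 to 9069005 per library. The labels do not say which embryo or litter a library came from, so p-values measure only the spread between these libraries.

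The first red cells of the mouse embryo form in blood islands of the yolk sac and enter the body of the embryo when the circulation starts. As they mature, the transcription factors GATA1 and KLF1 switch on a common set of genes, through the letters that bind GATA factors and through CACC boxes, among them those of heme synthesis, the spectrin skeleton under the membrane and the proteins that carry the blood group antigens. In RNA from a whole embryo, fewer cells of a type cannot be told apart from less of its RNA per cell.

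RefSeq (GRCm38.p6) promoter windows, from 250 bases before to 50 bases after a start site, were at hand for 26 of the 33 genes, 32 windows in all. The GATA letters AGATAA, or the same with a first T (TGATAA), on either strand, were found in 14 of the 32 windows (43.8%), and in 18.6% of the 32851 windows of all genes. The letters CCNCNCCC of a CACC box, on either strand and counted once per window, stood in 71.9% of the windows of these genes and in 49.5% of all windows. The 120 bases before the start are shown for the 8 genes that had GATA letters there and were lower in Commd10Null embryos at E10.5, and for Gata1 because its window held CACC letters and no GATA letters. They lie at chr8:84901862-84901981 on the plus strand for Klf1, at chrX:150547297-150547416 on the plus strand for Alas2, at chr6:41704326-41704445 on the minus strand for Kel, at chr17:40811029-40811148 on the plus strand for Rhag, at chr4:134864416-134864535 on the plus strand for Rhd, at chr4:119189996-119190115 on the minus strand for Ermap, at chr4:46404184-46404303 on the minus strand for Hemgn, at chr9:21963577-21963696 on the minus strand for Epor and at chrX:7967911-7968030 on the minus strand for Gata1. Each is written 5′ to 3′ on the strand of its gene, and capitals mark the GATA letters, which appear as their reverse complement where they lie on the other strand, and the CACC boxes, which overlap one another in runs of G or C and in Epor begin before the first base shown:
Klf1: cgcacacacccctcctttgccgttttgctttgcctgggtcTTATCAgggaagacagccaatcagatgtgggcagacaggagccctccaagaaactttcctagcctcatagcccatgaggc
Alas2: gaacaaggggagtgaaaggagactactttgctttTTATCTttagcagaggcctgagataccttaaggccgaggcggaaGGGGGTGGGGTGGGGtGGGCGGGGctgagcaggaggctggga
Kel: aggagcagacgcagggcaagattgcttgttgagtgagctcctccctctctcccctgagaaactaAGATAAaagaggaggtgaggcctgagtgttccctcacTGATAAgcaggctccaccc
Rhag: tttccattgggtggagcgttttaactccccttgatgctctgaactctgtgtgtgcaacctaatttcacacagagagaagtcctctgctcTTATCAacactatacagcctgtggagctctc
Rhd: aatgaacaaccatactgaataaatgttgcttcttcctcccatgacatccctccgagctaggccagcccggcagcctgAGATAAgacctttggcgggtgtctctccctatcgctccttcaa
Ermap: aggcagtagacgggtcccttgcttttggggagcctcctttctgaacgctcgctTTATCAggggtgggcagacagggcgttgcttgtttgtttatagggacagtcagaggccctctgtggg
Hemgn: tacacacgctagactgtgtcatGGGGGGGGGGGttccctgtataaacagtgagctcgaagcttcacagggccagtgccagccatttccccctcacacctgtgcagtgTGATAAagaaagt
Epor: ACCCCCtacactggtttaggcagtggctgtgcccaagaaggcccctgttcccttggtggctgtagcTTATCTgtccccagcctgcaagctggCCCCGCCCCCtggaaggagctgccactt
Gata1: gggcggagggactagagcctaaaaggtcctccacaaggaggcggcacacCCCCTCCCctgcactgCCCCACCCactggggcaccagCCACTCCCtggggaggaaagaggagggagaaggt
A match is a description of letters and no evidence of binding. Among the genes with a window, GATA letters stood in 10 of the 16 (62.5%) that were lower at E10.5 and in 4 of the 7 (57.1%) that did not pass the test there.

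Levels are given in CPM, a measure of a gene's share of the counts of its library, scaled with 1 set of factors (TMM) over all 32 libraries, and log2 fold changes with their standard errors come from edgeR's quasi-likelihood test fitted within a stage over all genes. A gene is called higher or lower only where its Benjamini-Hochberg adjusted p over all genes tested was 0.05 or less. Of the 33 genes, 24 reached the filter on low counts at the first stage and 32 at each of the later ones. Tspo2, an erythroid member of the translocator protein family, reached it at no stage, with 3 counts in all WT libraries at E8.5, 3 in those at E10.5 and 0 in every other group.

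In WT embryos most of the genes became more abundant between the first and the second stage. From E8.5 to E9.5, 24 of 32 genes were higher and 1 was lower, against 26% and 25.8% of the 14122 genes tested. The median log2 fold change over the 32 genes was 1.63, against -0.0041 over all genes. All 6 genes of the membrane skeleton and all 5 of the transport and blood group proteins were higher, as were 6 of 8 regulators, 5 of 9 heme genes and both receptors. A gene scarce at E8.5 could reach the filter on low counts through the later WT libraries alone, and so only where it rose. Ermap, Kel, Rhag, Slc4a1 and Rhd had 2, 9, 24, 33 and 39 counts in all 10 WT libraries at E8.5. Epb42, Trim10, Hemgn, Nfe2, Add2, Ank1 and Gfi1b had 6, 14, 37, 37, 40, 49 and 65. That all 5 transport and blood group genes were higher is therefore a description and no separate support for a rise. The count of 24 includes the other scarce genes named here and is in part set by the filter. From E9.5 to E10.5, 2 genes were higher and 1 was lower, against 6.36% and 6.95% of genes.

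Band 3 (Slc4a1, ENSMUSG00000006574, chromosome 11, bases 102348824 to 102366203, minus strand, in GENCODE's annotation of GRCm38) is the anion exchanger of the red cell membrane. Its level in WT embryos was 0 CPM at the lowest, 0 at the median and 1.92 at the highest of 10 libraries at E8.5, and 16.5, 21.1 and 51.6 CPM in the same order at E9.5. The groups did not overlap. Slc4a1 had 33 counts in all 10 WT libraries at E8.5 and reached the filter through the later ones. Its log2 fold change of 5.88 ± 0.43 (edgeR) is therefore a description. Ermap, which carries the Scianna blood group antigens, had 2 counts in all 10 WT libraries at E8.5, too few for a fold, and 1.70, 3.48 and 9.81 CPM at the lowest, median and highest at E9.5. Alas2, whose enzyme starts heme synthesis in red cells, rose 21.1-fold, from a median of 1.78 to one of 28.5 CPM. Hemgn, a nuclear protein of blood cell precursors, went from a median of 0.25 to one of 15.6 CPM, with 37 counts in all 10 WT libraries at E8.5.

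Several genes moved less or not past the threshold over the same day. Cpox, an enzyme late in heme synthesis, was the 1 gene lower at E9.5, by 0.34 on the log2 scale (SE 0.12, adjusted p = 0.0213). Tal1 and Lmo2, parts of a transcription factor complex that also serves blood progenitors and endothelium, had log2 fold changes of -0.13 and -0.15 that did not pass. Of the 2 genes higher at E10.5 than at E9.5 in WT, Add2 (β-adducin, which joins spectrin to actin) rose 3.39-fold and Bpgm, which makes the 2,3-bisphosphoglycerate that loosens the hold of hemoglobin on oxygen, 1.40-fold. The transferrin receptor Tfrc, which brings in iron, was the 1 gene that fell, 2.20-fold. The count of 2 was 7 without WT E9.5 replicate 9, the highest of the 9 libraries for 21 of 32 genes, and 1 without WT E10.5 replicate 2 or 3.

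**Figure D1:**
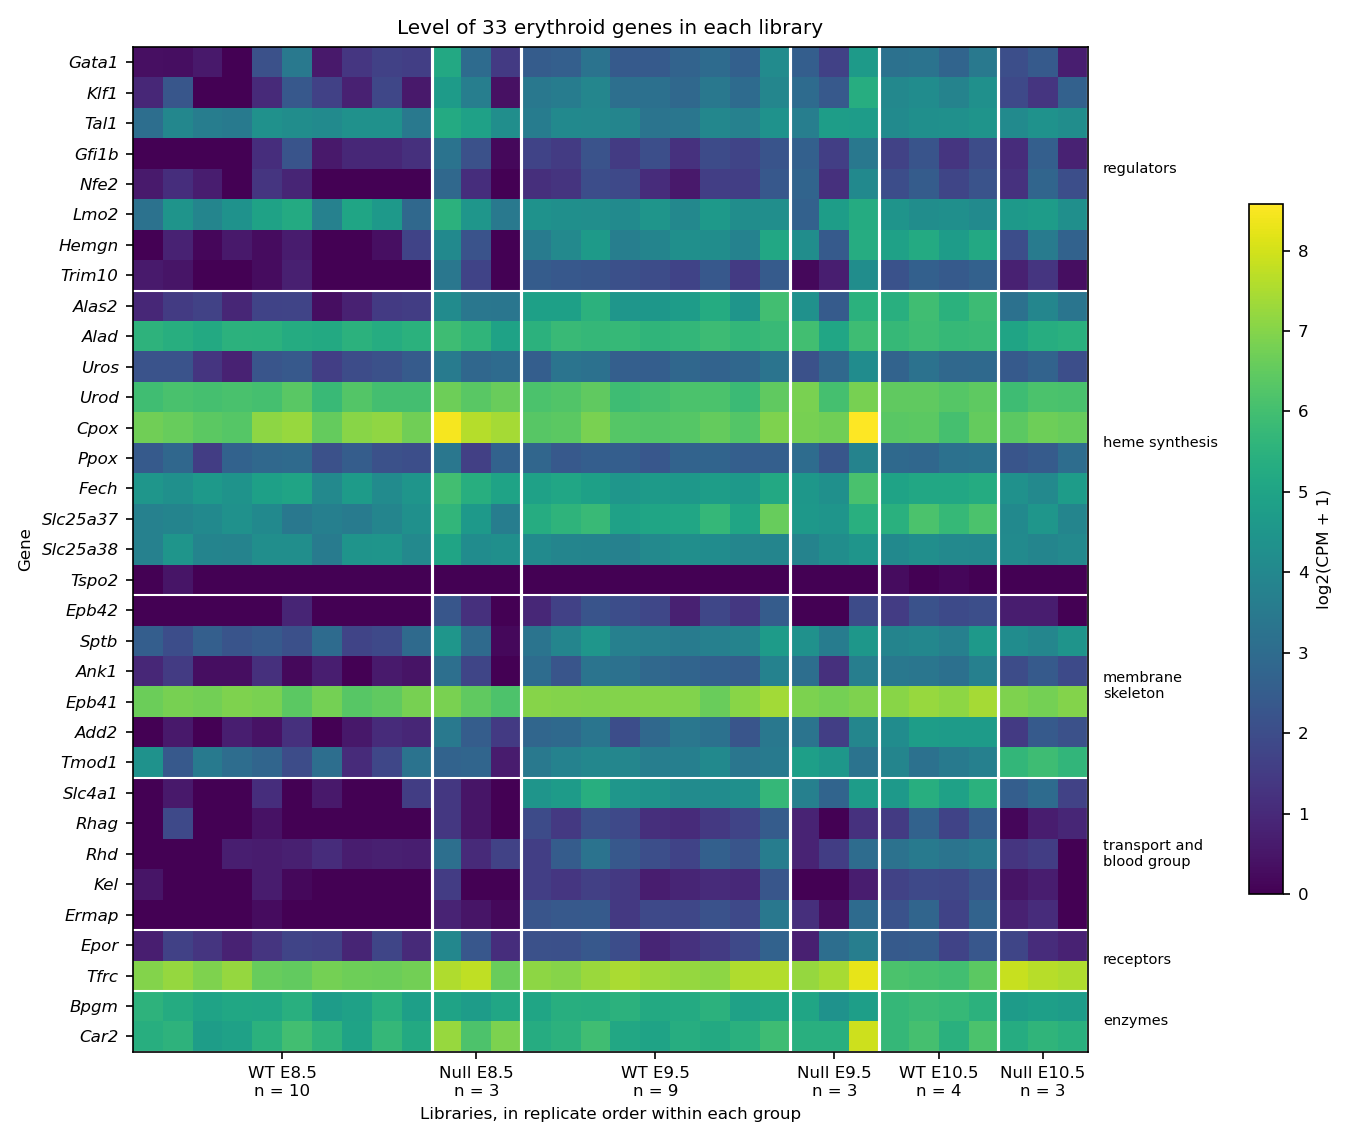
Level of each of the 33 erythroid genes (vertical axis, ordered by role) in each of the 32 libraries (horizontal axis, by stage and genotype), coloured by log2 of CPM with 1 added. The membrane transport and blood group genes are near 0 in WT at E8.5, present in WT at E9.5 and E10.5, and low again in the 3 Commd10Null libraries at E10.5.

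At E8.5, some of the erythroid genes were higher in Commd10Null than in WT embryos, and most of these calls were lost without Commd10Null replicate 1. Of the 24 genes tested, 13 were higher and 0 lower by edgeR, against 6.73% and 6.86% of 13799 genes, and the median log2 fold change was 1.03 over the 24 genes and -0.02 over all. At an unadjusted p of 0.05 or less 16 were higher and 0 lower, and by DESeq2 11 were higher and 0 lower. A gene scarce in WT could reach the filter through Commd10Null libraries alone. Of the 20 genes that reached it in WT libraries by themselves, a condition added after the values were seen, 11 were higher. The other 4 were Gfi1b, Hemgn, Ank1 and Add2. The 9 genes not tested were Nfe2, Trim10, Tspo2, Epb42, Slc4a1, Rhag, Rhd, Kel and Ermap. All 5 transport and blood group genes are among them, and their summed level was 0 to 3.22 CPM in WT and 2.18 to 13.7 CPM in Commd10Null. Of these 9, Trim10 had the highest level in a Commd10Null library, at 9.64, 2.31 and 0 CPM in replicates 1, 2 and 3, against at most 0.71 CPM in WT.

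Alas2 (ENSMUSG00000025270, chromosome X, bases 150547375 to 150570638, plus strand) showed the difference in every library. It stood at 0.25 CPM at the lowest, 1.78 at the median and 2.40 at the highest of the WT libraries, and at 16.7, 9.48 and 9.23 CPM in Commd10Null replicates 1, 2 and 3. All 3 lay above all 10 WT libraries, and Alas2 was 7.65-fold higher (log2 2.94 ± 0.42, adjusted p = 0.00104, edgeR). Cpox (ENSMUSG00000022742, chromosome 16, bases 58670292 to 58717636, plus strand) stood at 78.0, 104 and 150.2 CPM in WT at the lowest, median and highest, and at 353, 197 and 169 CPM in the Commd10Null libraries, 2.13-fold higher. Car2, the carbonic anhydrase that red cells share with several other cell types, stood at 26.6, 41.9 and 61.9 CPM in WT and at 149.7, 71.2 and 117 CPM in Commd10Null, 2.72-fold higher. With Uros and Add2, these were the 5 genes whose Commd10Null libraries all lay above all WT libraries. How many of all genes lay so far apart, or outside the WT range in a single library, was not counted at any stage. Such counts therefore describe these genes and do not set them apart from others.

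The other heme genes called at E8.5 were Uros (2.63-fold) and Urod (1.40-fold), both enzymes of porphyrin synthesis, Fech (1.96-fold), which inserts the iron, and Slc25a37 (1.95-fold), which carries iron into mitochondria. Among regulators Gata1 was 7.09-fold, Klf1 7.78-fold, Tal1 1.89-fold and Hemgn 13.0-fold higher, but Gata1, Klf1 and Hemgn did not pass by DESeq2. Hemgn stood at 15.8, 3.59 and 0 CPM in Commd10Null replicates 1, 2 and 3, against at most 2.30 CPM in WT. Epor, the erythropoietin receptor, was 4.18-fold and Add2 10.3-fold higher. Hemgn and Add2 did not reach the filter in WT libraries by themselves, so their folds are a description. Alad, Ppox and Slc25a38, which work in the same heme pathway, had log2 fold changes of 0.14, 0.30 and 0.43 that did not pass.

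The 3 Commd10Null libraries at E8.5 did not show these differences alike. Klf1, the CACC-binding factor of red cells (ENSMUSG00000054191, chromosome 8, bases 84901928 to 84905291, plus strand), stood at 0, 0.98 and 4.09 CPM at the lowest, median and highest of WT and at 25.4, 11.8 and 0.29 CPM in Commd10Null replicates 1, 2 and 3. Replicates 1 and 2 lay above every WT library and replicate 3 within their range. Gata1 stood at 0, 1.03 and 10.0 CPM in WT and at 35.4, 7.05 and 1.76 CPM in Commd10Null, so that only replicate 1 lay above all of WT. Replicate 1 exceeded every WT library for 27 of the 33 genes, replicate 2 for 17 and replicate 3 for 7, and replicate 3 was below every WT library for 4. Without replicate 1, 2 genes remained higher, Alas2 and Car2. Without replicate 2 the count was 12, without replicate 3 it was 16, and it was 11 to 13 without any 1 WT library. Gata1 was no longer past the threshold without WT replicate 1, 2, 3, 7 or 10, and Slc25a37 without WT replicate 7. Klf1 and Tal1 were not without Commd10Null replicate 2, nor Uros and Urod without Commd10Null replicate 3.

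**Figure D2:**
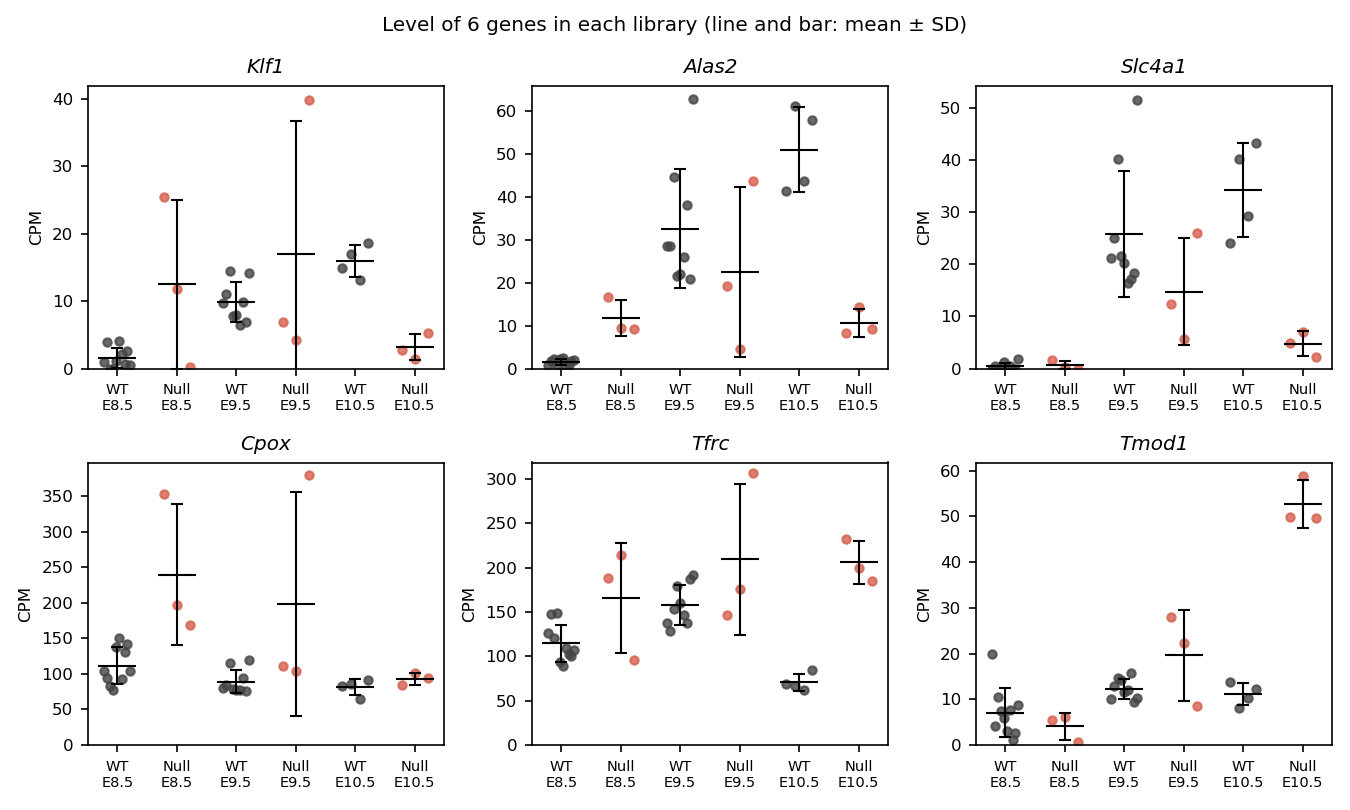
Level in CPM (vertical axes) of Klf1, Alas2, Slc4a1, Cpox, Tfrc and Tmod1 in each library (points) of both genotypes by stage, with a line and bar for each group's mean and SD. Alas2 lies above WT at E8.5 and below WT at E10.5 in all 3 Commd10Null libraries, while Tfrc and Tmod1 lie above WT at E10.5.

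Markers of other tissues differed between the same libraries. The summed level of 20 genes of the visceral and yolk sac endoderm, which lies around the blood islands, ranged from 783 to 5579 CPM in WT at E8.5 and was 7493, 5166 and 7078 CPM in Commd10Null replicates 1, 2 and 3, and 4 of the 20 genes were higher and 0 lower. Replicate 3, with the second highest of these sums, was the lowest Commd10Null library for 24 of 32 erythroid genes, while WT replicate 6, with the highest sum of WT, was the highest of WT for 13 of 33. Decidua and trophoblast genes, 18 in number, had a summed level of 92.5, 237 and 382 CPM in Commd10Null replicates 1, 2 and 3 and 18.8 to 115 CPM in WT, with 5 of 10 tested genes higher and 0 lower. That of 12 genes of the embryo proper was 266, 356 and 295 CPM in Commd10Null and 344 to 918 CPM in WT, with 0 of 12 higher and 6 lower. The summed level of 10 globin genes was 24.9 to 519 CPM in WT and 3126, 1536 and 830 CPM in Commd10Null replicates 1, 2 and 3. The part of these markers in the E8.5 differences was not tested.

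At E9.5 the genes did not move together. Of 32 genes tested, 7 were higher and 2 lower, against 20.2% and 17.4% of 13483 genes. At an unadjusted p of 0.05 or less the counts were 10 and 3, and by DESeq2, which did not call Cpox or Car2, 6 and 3. The median log2 fold change was 0.33 over the 32 genes and 0.02 over all. The 7 were Tal1, Gfi1b, Nfe2, Urod, Cpox, Tmod1 and Car2, from Nfe2, a globin gene regulator (3.81-fold, adjusted p = 0.0121, edgeR), down to Urod (1.40-fold, adjusted p = 0.0349). The 2 lower genes were Bpgm (1.38-fold, adjusted p = 0.0441) and Kel, the Kell blood group endopeptidase. Kel stood at 0.62, 1.57 and 3.92 CPM at the lowest, median and highest of WT and at 0, 0 and 0.60 CPM in Commd10Null. It was the 1 gene with all 3 Commd10Null libraries below all WT libraries. Kel had 5 counts in all 3 Commd10Null libraries, too few for a fold, and reached the filter on low counts through WT libraries alone. It could enter the test only where WT held more, so its call is a description. No gene had all 3 above.

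Commd10Null replicate 3 at E9.5 stood apart from replicates 1 and 2. It exceeded every WT library for 19 of 32 genes and lay below them for 3, while replicate 1 lay above for 6 and below for 12, and replicate 2 above for 4 and below for 18. Klf1 was at 6.97, 4.22 and 39.8 CPM in replicates 1, 2 and 3, against 6.47 to 14.4 CPM in WT. Cpox was at 111, 103 and 380 CPM against 75.9 to 119, and Trim10, a red cell RING finger protein, at 0.14, 0.64 and 17.6 CPM against 1.74 to 4.61. Replicate 3 was thus high and replicates 1 and 2 within or below the WT range for these genes.

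The calls at E9.5 depended on that library. Without replicate 3, 1 gene was higher (Tmod1) and 9 were lower, namely Trim10, Alas2, Slc25a37, Epb42, Slc4a1, Rhag, Rhd, Kel and Ermap. Trim10 then had a log2 fold change of -3.07, against 0.86 with all libraries. In replicates 1 and 2, Epb42 and Kel had 0 counts, Trim10 1 and 5, Rhag 6 and 0 and Ermap 9 and 2. Genes this scarce in Commd10Null could enter that test only where WT held more. The share of all genes called without replicate 3 was not counted, so the 9 is a description. Without replicate 1, 10 were higher and 2 lower, and without replicate 2, 9 were higher and 0 lower. Without WT replicate 1, 4, 5, 6 or 8 the higher count was 4, and without WT replicate 2, 3, 4, 5 or 7 the lower count was 1. The summed level of the endoderm genes was 669, 1243 and 8375 CPM in replicates 1, 2 and 3, against 143 to 314 CPM in WT, with 19 of 19 tested genes higher and 0 lower. The summed level of 12 genes of the embryo proper was 1578, 907 and 257 CPM, against 655 to 775 CPM in WT, with 4 of 12 higher and 5 lower. What part the endoderm had in the high erythroid levels of replicate 3 was not tested.

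**Figure D3:**
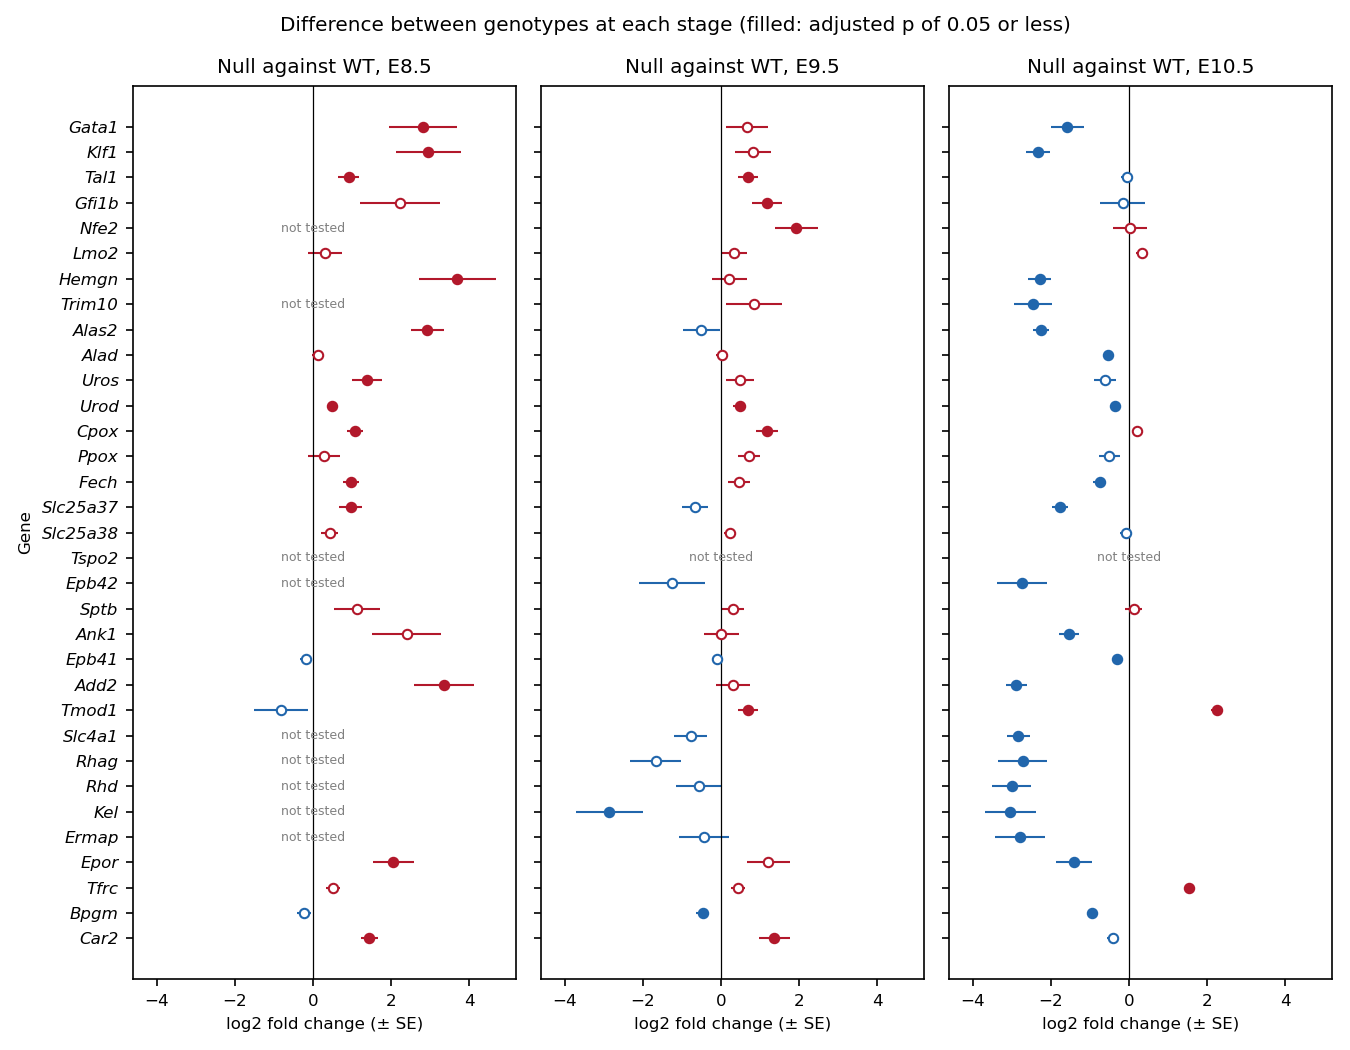
Log2 fold change of Commd10Null against WT (horizontal axis, with bars of 1 standard error) for each gene tested (vertical axis, ordered by role) in each of the stages, filled where the adjusted p was 0.05 or less. Calls lie to the right at E8.5 (13 higher, 0 lower), on both sides at E9.5 (7 and 2) and mostly to the left at E10.5 (2 and 20).

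At E10.5, most erythroid genes were scarcer in Commd10Null than in WT embryos, in each of the 3 Commd10Null libraries. In replicates 1, 2 and 3, 25, 23 and 22 of 33 genes lay below every WT library. The 3 were not alike in level. Replicate 2 was the highest of them for 22 of 32 genes, and Gata1 ran from 0.63 to 4.33 CPM. Of 32 genes tested, 20 were lower and 2 higher, against 21.4% and 20.9% of 13522 genes. The median log2 fold change was -0.85 over the 32 genes and 0.01 over all. The genes of transport and blood group proteins stood lowest, with 5 of 5 lower and a median log2 fold change of -2.84. Kel, Rhag, Ermap and Rhd reached the filter on low counts through WT libraries alone. They had 8, 13, 15 and 28 counts in all 3 Commd10Null libraries. Genes this scarce in Commd10Null could enter the test only where WT held more, so the 5 of 5 is a description. Epb42, Trim10, Epor and Gata1, with 10, 20, 35 and 66 counts, also reached the filter through WT libraries alone. The count of 20 lower is therefore in part set by the filter. Of the other roles, 4 of 8 regulators, 5 of 9 heme genes, 4 of 6 membrane skeleton genes, 1 of 2 receptors and 1 of 2 cytosolic enzymes were lower. Overlap between the groups is given below gene by gene and was not counted over all genes.

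Slc4a1 stood at 24.1, 40.2, 29.3 and 43.3 CPM in WT replicates 1 to 4 and at 4.91, 7.05 and 2.26 CPM in Commd10Null replicates 1 to 3. No Commd10Null library reached the WT range, and Slc4a1 was 7.14-fold lower (log2 -2.84 ± 0.30, adjusted p = 3.71e-06, edgeR). The Rh proteins of the membrane gave like values, with Rhd at 8.34, 10.2, 8.86 and 10.3 CPM in WT and at 1.47, 1.98 and 0 CPM in Commd10Null, 8.03-fold lower. All 3 Commd10Null libraries were again below all 4 of WT. Rhag, which sits in the same membrane complex and conducts ammonia, stood at 1.79, 5.52, 2.33 and 4.96 CPM in WT and at 0.12, 0.62 and 0.88 CPM in Commd10Null, 6.59-fold lower.

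The other 2 genes of blood group proteins were scarce throughout. Kel (ENSMUSG00000029866, chromosome 6, bases 41686330 to 41704339, minus strand) stood at 2.22, 2.70, 2.57 and 3.90 CPM in WT and at 0.37, 0.62 and 0 CPM in Commd10Null, 8.24-fold lower (log2 -3.04 ± 0.65, adjusted p = 0.00177, edgeR). Ermap stood at 3.48, 5.97, 2.33 and 5.67 CPM in WT and at 0.74, 1.11 and 0 CPM in Commd10Null, 6.87-fold lower. Both were at 0 in replicate 3 of Commd10Null and above 0 in every WT library.

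Among regulators, Klf1 stood at 15.0, 17.0, 13.2 and 18.6 CPM in WT and at 2.70, 1.48 and 5.28 CPM in Commd10Null, 5.01-fold lower (log2 -2.33 ± 0.31, adjusted p = 3.85e-05). Gata1 (ENSMUSG00000031162, chromosome X, bases 7959260 to 7978071, minus strand) stood at 8.23, 8.67, 5.83 and 10.2 CPM in WT and at 3.19, 4.33 and 0.63 CPM in Commd10Null, 3.00-fold lower. Hemgn stood at 28.7, 36.9, 25.9 and 35.3 CPM in WT and at 3.07, 10.8 and 5.53 CPM in Commd10Null, 4.88-fold lower (adjusted p = 2.28e-05). Trim10 was 5.46-fold lower. The groups did not overlap for any of these 4 genes. Gata1 and Trim10 reached the filter on low counts through WT libraries alone, so their folds are a description. Tal1, Gfi1b (a repressor), Nfe2 and Lmo2 did not pass, with log2 fold changes of -0.04, -0.16, 0.03 and 0.34.

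In heme synthesis the size of the difference varied with the gene. Alas2 stood at 41.4, 61.1, 43.9 and 57.9 CPM in WT and at 8.23, 14.5 and 9.18 CPM in Commd10Null, 4.78-fold lower (log2 -2.26 ± 0.20, adjusted p = 8.86e-07, edgeR), and the groups were well apart. Slc25a37 stood at 42.1, 70.1, 52.0 and 69.5 CPM in WT and at 15.7, 21.5 and 14.0 CPM in Commd10Null, 3.40-fold lower, and its groups did not overlap either. The enzymes that most cells use were lower by less, Fech 1.69-fold, Alad 1.45-fold and Urod 1.27-fold, also without overlap. Uros had a log2 fold change of -0.61 that did not pass (adjusted p = 0.0934), although all 3 Commd10Null libraries lay below all 4 WT libraries. Cpox, at 83.1, 85.1, 65.2 and 91.8 CPM in WT and 84.0, 101 and 94.7 CPM in Commd10Null, did not pass either, with a log2 fold change of 0.21 ± 0.11. Ppox (-0.50) and Slc25a38 (-0.07), which takes glycine into mitochondria, did not pass.

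In the membrane skeleton, Add2 stood at 17.2, 26.1, 25.3 and 25.1 CPM in WT and at 1.72, 4.33 and 3.39 CPM in Commd10Null, 7.38-fold lower (log2 -2.88 ± 0.27, adjusted p = 1.09e-06). Epb42 (protein 4.2), which binds band 3, was 6.65-fold lower. Ank1 (ankyrin), which holds band 3 to spectrin, stood at 9.71, 9.23, 8.05 and 12.2 CPM in WT and at 2.95, 4.33 and 2.77 CPM in Commd10Null, 2.90-fold lower. Epb41 (protein 4.1), which many tissues use, was 1.25-fold lower. Sptb, the β-spectrin gene, had a log2 fold change of 0.13 ± 0.22 that did not pass, so the call was not shared by every gene of this skeleton. Bpgm was 1.93-fold and Epor 2.64-fold lower, while Car2 had a log2 fold change of -0.40 (adjusted p = 0.055).

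The 2 genes that were higher at E10.5 differed from the rest in direction. Tmod1, tropomodulin, which caps actin filaments in red cells and in heart muscle, stood at 13.8, 8.10, 10.3 and 12.3 CPM in WT and at 49.9, 58.8 and 49.5 CPM in Commd10Null, 4.76-fold higher (log2 2.25 ± 0.16, adjusted p = 8.7e-08, edgeR). Tfrc stood at 69.0, 66.4, 62.3 and 85.0 CPM in WT and at 232, 200.1 and 185 CPM in Commd10Null, 2.93-fold higher (adjusted p = 7.79e-08). Neither gene's groups overlapped.

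The E10.5 count held when 1 library was left out, at 19 to 21 lower and 2 to 3 higher. Epb41 passed without every library but Commd10Null replicate 2. Epor was no longer past the threshold without WT replicate 1 or 2, or without Commd10Null replicate 2 or 3. With all 32 libraries in 1 model, which shares 1 estimate of the spread over the stages, 10 genes were lower and 2 higher. Calls over all genes fell from 5724 to 3651 in that model. Gata1, Trim10, Urod, Fech, Epb42, Ank1, Epb41, Rhag, Kel and Epor were the 10 that then missed the threshold.

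**Figure D4:**
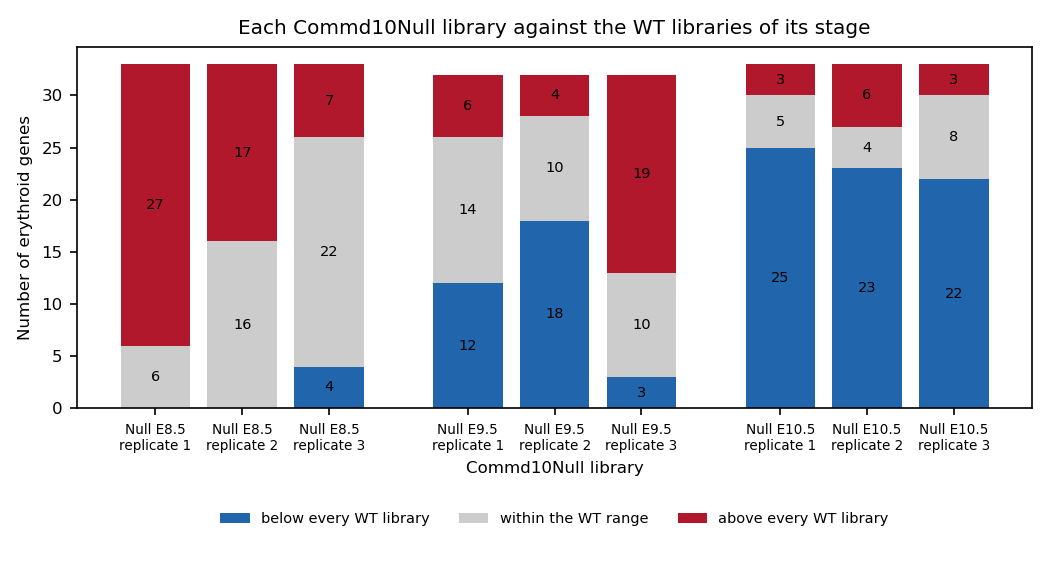
Number of genes (vertical axis) whose level in a Commd10Null library lay above, within or below the range of the WT libraries of its stage, for each of the 9 Commd10Null libraries (horizontal axis). At E8.5 the genes above number 27, 17 and 7, and at E10.5 the genes below number 25, 23 and 22. The same was not counted over all genes.

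The globins, the product the erythroid programme makes in bulk, give a scale for these differences. The summed level of 10 globin genes at E10.5 was 15043 to 25461 CPM in WT and 2315 to 3904 CPM in Commd10Null, and all 8 globin genes tested were lower. Alas2 per 1000 globin counts was 2.27 to 2.75 in WT and 3.55 to 3.71 in Commd10Null at E10.5, and the groups did not overlap. The sum of all 33 genes per 1000 globin counts was 41.6 to 57.6 in WT and 215.5 to 342 in Commd10Null. That sum in CPM was 847 to 1060 in WT and 791 to 841 in Commd10Null, again without overlap. Tfrc, which was higher, Epb41, lower by little, and Cpox, not past the threshold, weigh heavily in it. Their means in Commd10Null at E10.5 were 206, 118 and 93.2 CPM, against a mean of 808 CPM for the whole sum. Neither form of the sum therefore stands for the genes that were lowest.

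**Figure D5:**
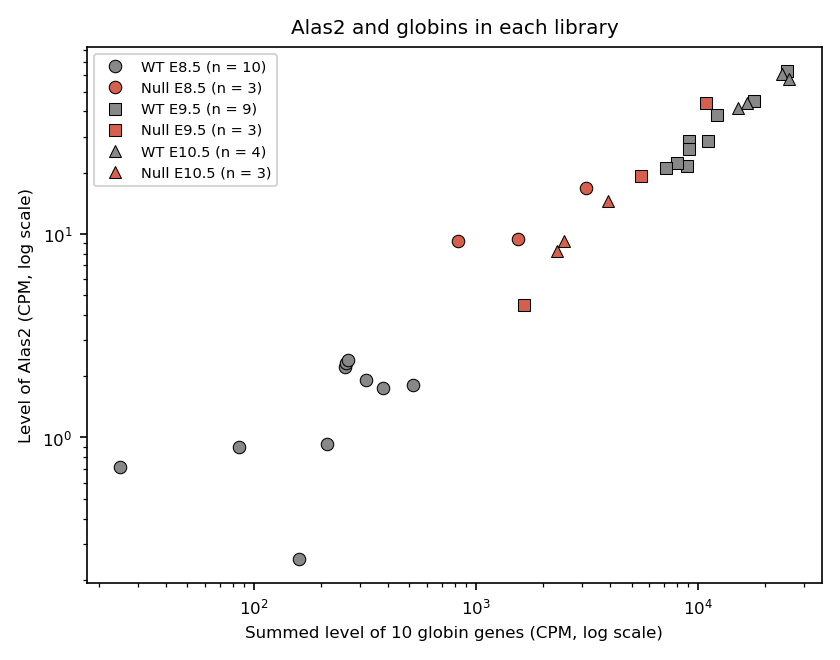
Level of Alas2 (vertical axis, CPM, log scale) against the summed level of 10 globin genes (horizontal axis, CPM, log scale), each point a library, by stage and genotype. The Commd10Null libraries at E10.5 hold 8.23 to 14.5 CPM of Alas2 and 2315 to 3904 CPM of globins, below all WT libraries of that stage on both axes.

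Other lists moved with genotype at E10.5 as well. The summed level of the endoderm genes was 1565 CPM in WT replicate 1, 173 to 175 CPM in the other 3 WT libraries and 198 to 301 CPM in Commd10Null. Of 14 tested endoderm genes, 1 was higher and 4 were lower. Macrophage genes, 10 in number, had a summed level of 31.2 to 51.3 CPM in WT and 2.33 to 8.28 CPM in Commd10Null, with 5 of 7 tested genes lower and 0 higher, Csf1r being counted with the progenitor genes. Megakaryocyte and platelet genes, the blood lineage nearest to red cells, summed over 10 genes to 49.9 to 59.6 CPM in WT and to 65.6, 225 and 93.8 CPM in Commd10Null, with 4 of 7 higher and 0 lower. Endothelial genes, 12 in number, had a summed level of 282 to 316 CPM in WT and 444 to 515 CPM in Commd10Null, with 5 of 12 higher and 1 lower. That of 12 genes of the embryo proper was 488 to 535 CPM in WT and 1577 to 2224 CPM in Commd10Null. Of the 11 tested, 6 were higher and 4 lower, so these genes did not rise as a whole. The 1 most abundant identifier held 2.98 to 5.71% of counts in WT and 17.3 to 20.3% in Commd10Null, and mitochondrial genes 3.38 to 4.29% in WT and 1.64 to 1.78% in Commd10Null. Their part in the erythroid differences was not tested. With the most abundant identifier left out of the library sizes, an alternative added after the data were seen, 21 genes were lower and 2 higher at E10.5.

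The differences between stages were tested in 1 model of all 32 libraries. Comparing the genotype difference at E10.5 with that at E8.5, a comparison added after the data were seen, 20 of 32 genes had a lower difference at E10.5 and 2 a higher one, against 8.29% and 10.3% of 15057 genes. Of the 20, Trim10, Epb42, Slc4a1, Rhd, Kel and Ermap were under the filter at E8.5 when that stage was fitted by itself. They entered this test with libraries of other stages, so the count of 20 is in part set by the filter. The median over the 32 genes was -2.41 on the log2 scale and 0.01 over all genes. Alas2 moved from above WT to below it, by -5.21 ± 0.65 (adjusted p = 1.49e-06, edgeR), and Klf1 by -5.32 ± 1.10 (adjusted p = 0.000916). Add2 moved by -6.28 ± 0.84. Tmod1 (3.03 ± 0.74) and Tfrc (1.01 ± 0.29) were the 2 that moved the other way. Without Commd10Null E8.5 replicate 1 the count of 20 was 13, and without each of the other libraries in turn it was 17 to 21. The count of 2 was 1 without Commd10Null E8.5 replicate 3.

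From E8.5 to E9.5 the genotype difference fell for 8 genes and rose for 0, against 4.9% and 6.24% of genes. At an unadjusted p of 0.05 or less the counts were 11 and 1, and by DESeq2 9 and 0. The 8 were Hemgn, Alas2, Slc25a37, Epb42, Add2, Rhd, Kel and Ermap. Epb42, Rhd, Kel and Ermap were under the filter at E8.5 when that stage was fitted by itself. Without Commd10Null E8.5 replicate 1 the count of 8 was 1, without Commd10Null E9.5 replicate 1 it was 5 and without Commd10Null E9.5 replicate 3 it was 16. From E9.5 to E10.5 the difference fell for Urod, Add2 and Car2 and rose for Tfrc, 3 and 1 against 4.06% and 3.63% of genes, by the same test. The count of 3 was 13 without Commd10Null E9.5 replicate 2, 8 without replicate 1 and 1 without replicate 3 of that group, 1 without Commd10Null E10.5 replicate 1, 6 without Commd10Null E8.5 replicate 3 and 5 without WT E9.5 replicate 9.

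Within Commd10Null embryos, none of these genes passed the test from 1 stage to the next. From E8.5 to E9.5, 0 of 29 genes tested passed in either direction by edgeR, as did 0% of all 13599 genes higher and 0% lower, with 2 genes higher and 0 lower at an unadjusted p of 0.05 or less and 2 higher by DESeq2. From E9.5 to E10.5, 0 of 29 passed in either direction, against 0.0368% higher and 0.0294% lower of all genes, with 1 higher and 3 lower at an unadjusted p of 0.05 or less and 0 by DESeq2. Slc4a1 stood at 1.63, 0.38 and 0 CPM in the Commd10Null libraries at E8.5 and at 12.4, 5.75 and 25.9 CPM in those at E9.5, without overlap, and its log2 fold change of 4.42 ± 0.95 had an adjusted p of 0.208 (edgeR). Alas2 had a log2 fold change of 0.94 ± 0.63 over the same day (adjusted p = 0.686).

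A second list of 49 erythroid genes, put together apart from the members, gave a mixed picture. At E8.5, 14 of 44 tested genes were higher and 1 lower, among them Blvrb (log2 2.08), an enzyme of heme breakdown, and Abcb10 (1.28), a mitochondrial transporter that aids heme synthesis, against 6.73% and 6.86% of all genes. At E9.5, 16 of 45 were higher and 5 lower, against 20.2% and 17.4%. At E10.5, 15 of 46 were higher and 21 lower, against 20.9% and 21.4%, with the glucose transporter Slc2a1 at 2.53 and Bcl11a, a repressor of globin genes, at -4.64. Several genes of this list are also used by tissues other than blood.

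6 of the genes overlap a gene of the other strand near the end where tags are counted, namely Alas2 (Apex2), Cpox (Gpr15), Ppox (B4galt3), Sptb (Plekhg3), Ank1 (Gm15816) and Tmod1 (Tstd2). No source used here says whether the counting used the strand, so reads of the 2 partners may not be told apart in these 6.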

How the data were processed

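The 33 genes, their roles and the other gene lists were chosen with earlier results of these data known. The values are raw, unnormalized counts for Ensembl genes in a single table as deposited, made from QuantSeq 3′ libraries. For trimming, the submitters' processing notes name Trimmomatic 0.35 and the study names BBDuk, a difference not resolved here. Both name STAR for the alignment, which by the study was to coding regions of mm10, with genes annotated through biomaRt. The tool that counted reads, its strand setting and the release of the gene models are not named there. Groups came from the sample labels, and all 32 columns were tied to a library. Counts were tested with edgeR 4.0.16 in R 4.3.3 (quasi-likelihood test, TMM factors, filterByExpr at 10 counts and a total of 15), fitted over all genes, by stage for the genotypes, within a genotype for the stages and over all 32 libraries for differences between stages. A gene passed at a Benjamini-Hochberg adjusted p of 0.05 or less. All 33 genes are described, and of other lists at most 4 per comparison, those with the smallest p. Alternatives were DESeq2 1.42.0, other scalings and filters, a replicate block, a minimum log2 change of 1 and leaving out each library. Same-numbered libraries deviated together with correlations of -0.0657 to 0.111, so the numbers were not taken to pair them. No 2 libraries of a group agreed within counting noise. The tests were tried on simulated counts. Symbols were matched by identifier, gene positions are from GENCODE (GRCm38) and promoter letters from RefSeq.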

Additional observations from a re-analysis of the deposited data

Results flagged for a closer look

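In 12 of 99 groups of 4 to 10 WT libraries, 1 library stood far from the others by Dixon's criterion. Chance meets it in about 1 of 20 groups of independent, normally spread values. The groups here share the same libraries, and a group with 1 library above 0 always meets it. The 12 of 99 is therefore no measure of an excess. At E9.5 WT replicate 9 was the highest for Gata1 (16.6 CPM, others 4.39 to 8.58), Slc25a37 (95.8 CPM, others 28.9 to 55.3), Kel (3.92 CPM, others 0.62 to 2.11) and Ermap (9.81 CPM, others 1.70 to 4.35). At E8.5 WT replicate 6 was the highest for Gata1 (10.0 CPM, others up to 3.37), Gfi1b (3.67 CPM, others up to 1.28) and Epb42 (0.85 CPM, others 0). The other 5 were Hemgn in WT E8.5 replicate 10 (2.30 CPM), Tmod1 in WT E8.5 replicate 1 (19.9 CPM), Rhag in WT E8.5 replicate 2 (2.71 CPM), Ermap in WT E8.5 replicate 5 (0.23 CPM, from 2 counts) and, as the lowest of its group, Add2 in WT E10.5 replicate 1 (17.2 CPM, others 25.1 to 26.1).

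The difference between Commd10Null and WT was itself different between stages for the genes that follow, by edgeR's test of the interaction in 1 model of all 32 libraries. From E8.5 to E9.5 it changed, in log2, by -3.55 for Hemgn, -3.48 for Alas2, -1.68 for Slc25a37, -5.54 for Epb42, -3.11 for Add2, -3.44 for Rhd, -5.23 for Kel and -3.98 for Ermap, with adjusted p from 0.000308 (Alas2) to 0.0311 (Ermap). From E9.5 to E10.5 it changed by -0.81 for Urod, -3.17 for Add2, -1.75 for Car2 and 1.13 for Tfrc, with adjusted p from 0.0105 (Add2) to 0.0299 (Car2).

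From E8.5 to E10.5, the comparison added after the data were seen, the changes in regulators were -4.44 for Gata1, -5.32 for Klf1, -6.03 for Hemgn and -6.81 for Trim10. Those in heme genes were -5.21 for Alas2, -0.70 for Alad, -2.03 for Uros, -0.85 for Urod, -1.74 for Fech and -2.76 for Slc25a37. Those in membrane genes were -6.97 for Epb42, -3.97 for Ank1, -6.28 for Add2, 3.03 for Tmod1, -3.52 for Slc4a1, -5.85 for Rhd, -5.38 for Kel and -6.30 for Ermap. Epor changed by -3.49, Tfrc by 1.01, Bpgm by -0.75 and Car2 by -1.86. Adjusted p ran from 1.49e-06 (Alas2) to 0.0408 (Slc4a1). Trim10, Epb42, Slc4a1, Rhd, Kel and Ermap were under the filter at E8.5 when that stage was fitted by itself, so that the size of their changes from that stage, in both comparisons that use it, is not well measured. In WT at E8.5, Epb42, Kel and Ermap had 6, 9 and 2 counts, and the value of Ermap is no measure of size.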

How the results depend on the processing

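With all 32 libraries in 1 model, 21 of 32 genes tested were higher at E8.5 and 10 lower at E10.5. The E8.5 fit by itself tested 24 genes. Those under its filter, such as Trim10, Nfe2 and Epb42, entered the joint model with libraries of other stages. The 21 is therefore not on the same footing as the count of that fit. Calls over all genes, in both directions together, went from 1876 to 2571 at E8.5 and from 5724 to 3651 at E10.5. At E9.5, 3 were higher with library sizes without factors, 4 with no filter and 4 with a log2 change of at least 1, while 0 were lower with a filter of 50 counts in 3 libraries (23 tested) and 1 with a log2 change of at least 1. From E8.5 to E9.5 in WT, 0 were lower without factors or with that minimum, which also left 1 higher from E9.5 to E10.5. In Commd10Null, 2 were higher from E8.5 to E9.5 by DESeq2 and with no filter, and 1 higher and 3 lower from E9.5 to E10.5 with no filter. By DESeq2, 5 had a lower genotype difference at E10.5 than at E9.5. Beyond the filters and minimum, which by construction take in fewer or more genes, the cause of these shifts was not tested. Library sizes without factors moved the median log2 fold change of all genes to -0.17 at E9.5, -0.13 at E10.5 and 0.12 from E8.5 to E9.5 in WT.

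With a replicate block, 0 genes were higher and 0 lower at E9.5, where calls over all genes also fell, from 5068 to 607. The higher count from E9.5 to E10.5 in the genotype difference was 2 with the block. The numbers are not known to pair libraries.

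Leaving out 1 library gave 2 to 16 higher at E8.5, 1 to 10 higher and 0 to 9 lower at E9.5 and 1 to 7 higher from E9.5 to E10.5 in WT. From E8.5 to E9.5 in Commd10Null it gave 0 to 2 higher and 0 to 2 lower. For the genotype difference it gave 1 to 16 lower from E8.5 to E9.5, 0 to 1 higher and 1 to 13 lower from E9.5 to E10.5, and 1 to 2 higher and 13 to 21 lower from E8.5 to E10.5. At E9.5 the log2 fold change of Trim10 ran from -3.07 to 1.42 and that of Car2 from -0.018 to 1.76. Depth leaves genes of a few counts, such as Kel and Ermap, with wide errors.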
